A study of Homo sapiens with 11 samples.

Results

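The mature miRNAs hsa-miR-483-5p, hsa-miR-483-3p, hsa-miR-675-5p, hsa-miR-675-3p, hsa-miR-335-5p and hsa-miR-335-3p are cut from 3 hairpins that lie inside the imprinted genes IGF2, H19 and MEST. They were picked by name as both arms of these hairpins, partly because they changed strongly in the cells exposed to H2O2 before differentiation, and they are 6 of the 2576 miRNAs in the count tables. Small RNA was sequenced in 11 libraries of SH-SY5Y, a human neuroblastoma cell line subcloned from SK-N-SH that takes on neuron-like features when given all-trans retinoic acid (ATRA). In the co-treatment experiment, 3 libraries came from cells given 10 µM H2O2 together with ATRA for 7 days and 3 from controls without H2O2. In the pre-treatment experiment, 3 libraries came from cells kept in 10 µM H2O2 for 72 h and then, once it was removed, given ATRA for 7 days, and 2 came from controls without H2O2. A further sample was set aside by the submitters as an outlier, and all cells are of a single line. The labels give biological replicates but not what separated them, so the p-values measure only the spread between these samples. The 4 groups thus share ATRA and differ in H2O2, its timing and the experiment they belong to. They address whether oxidative stress before or during neuronal differentiation alters miRNA levels.

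An imprinted gene is expressed mainly from the copy inherited from either the mother or the father. IGF2 encodes a fetal growth factor and is expressed from the paternal copy, while the neighbouring H19 gives a maternally expressed long non-coding RNA, and both are controlled by a shared imprinting region. MEST is a paternally expressed gene of mesodermal tissues. A miRNA hairpin inside such a gene can be released from the host transcript, then trimmed by Dicer into a 5p and a 3p strand, of which either may be loaded into an Argonaute protein. The loaded strand recognises messenger RNAs mainly through its seed, the bases near its 5′ end. Host gene messenger RNA is not measured in small RNA libraries, and bulk RNA cannot tell fewer cells of a type from less RNA per cell.

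The mature sequences of 4 members were found in the RefSeq miRNA table (GRCh38.p14) and are shown, with the seed in capitals (bases 2 to 8), because the arms of a hairpin carry unrelated seeds and so would address different targets.
hsa-miR-675-5p: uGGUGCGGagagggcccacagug
hsa-miR-675-3p: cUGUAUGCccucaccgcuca
hsa-miR-335-5p: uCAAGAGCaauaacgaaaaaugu
hsa-miR-335-3p: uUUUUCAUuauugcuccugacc
The miR-675 strands were rich in G and C, at 69.6% for the 5p and 60.0% for the 3p strand, whereas hsa-miR-335-5p had 30.4% and hsa-miR-335-3p 36.4%. Only hsa-miR-675-5p shared its seed with another human miRNA in that table, hsa-miR-4466, which had 0 to 5 counts per library and was too low to test.

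In GRCh37, the genome build of the files, the miR-483 hairpin lies on the minus strand at chr11:2155364-2155439, within an intron in each of the 9 annotated IGF2 transcripts that span it. The miR-675 hairpin lies 137.4 kb away on the same strand at chr11:2017989-2018061, where it falls in an exon of 13 and an intron of 15 of the 28 H19 transcripts that span it. On the plus strand of chromosome 7, the miR-335 hairpin at chr7:130135952-130136045 is intronic in all 13 spanning MEST transcripts.

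Library depth ranged from 5343953 to 8927582 miRNA counts, with a median of 7425640, so that 3 counts in a library stood for 0.336 to 0.561 CPM, the unit that sets read counts to a common library total, before scaling between libraries. Levels below are CPM scaled across all 11 libraries with trimmed mean of M values (TMM) factors. The pre-treatment controls resembled each other less than libraries of any other group did, with a Pearson r of 0.951 over 945 miRNAs against 0.984 to 0.995 elsewhere. Control 1 of that pair also held 540 counts of the myeloid hsa-miR-223-3p and 1007 of the squamous epithelial hsa-miR-205-5p, where control 2 held 4 and 32. Of the neuronal markers, hsa-miR-124-3p was at 0 to 7 counts in every library and hsa-miR-9-5p at 14 to 46, while hsa-miR-128-3p had 8016 to 15575. The pre-treatment log2FC of each member is therefore given against both controls and against each alone.

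All 6 members were detected in all 11 libraries, and all 6 passed the filter on low counts in both experiments. Among 1266 miRNAs that exceeded 3 counts in any library, hsa-miR-675-3p ranked 161st by mean CPM in the co-treatment controls, hsa-miR-335-5p 201st, hsa-miR-483-3p 234th, hsa-miR-483-5p 252nd, hsa-miR-675-5p 322nd and hsa-miR-335-3p 420th. Among the members the 3p strand was more abundant in miR-675, the 5p strand in miR-335, and both strands were at a like level in miR-483.

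**Figure D1:**
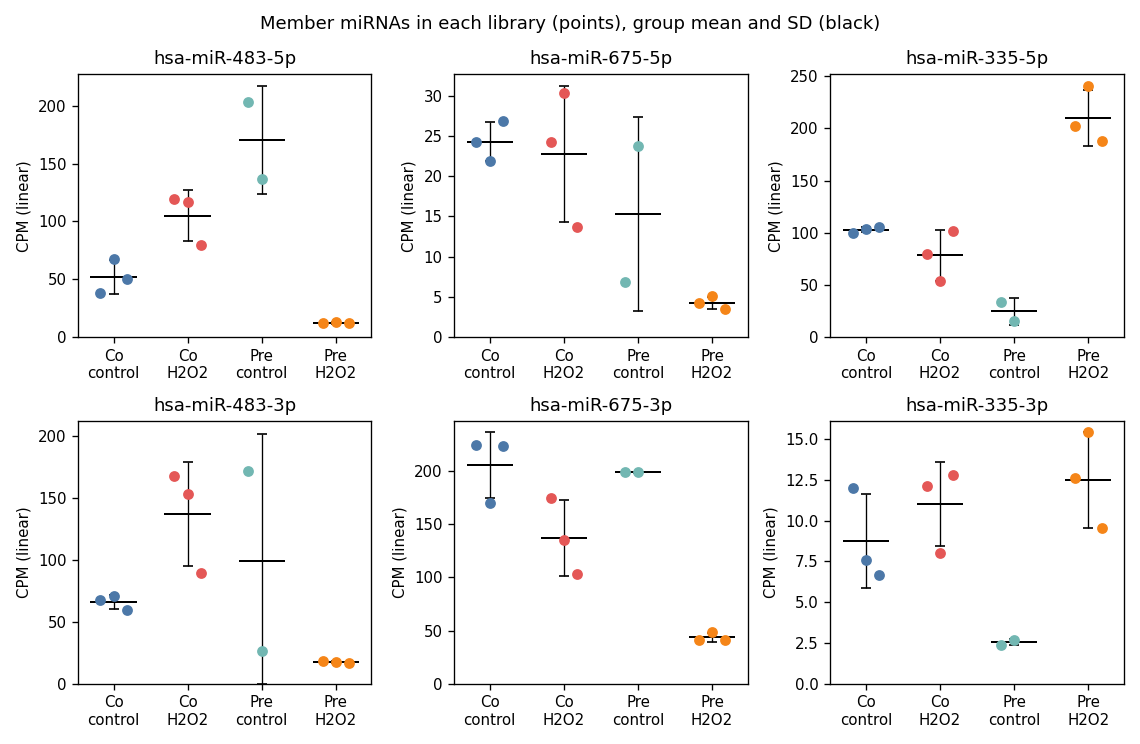
CPM (linear axis) of each member in the 11 libraries, by group, with each point a library, the black line the group mean and the bars the SD (n = 3, or 2 for the pre-treatment controls; the lower bar of hsa-miR-483-3p in those controls is cut at 0). The pre-treatment H2O2 libraries are the lowest for both miR-483 and both miR-675 strands, and hsa-miR-335-5p is highest there, at 188 to 240.4 CPM.

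When H2O2 was given together with ATRA, both strands of miR-483 rose about 2-fold and no other member passed the test. The co-treatment contrast played no stated part in the choice of members. A miRNA was called at a false discovery rate (FDR) below 0.05 in the edgeR exact test if its log2 fold change (log2FC) also exceeded 0.6 in size. By this rule 2 of the 6 members were called higher and 0 lower, beside 10.6% of the 790 tested miRNAs called higher and 15.6% called lower. These shares, 84 and 123 miRNAs, became 99 higher and 97 lower when libraries were scaled by size alone, with both miR-483 strands still called. The 2 called members are the arms of a single hairpin, so they do not count as independent changes. The median absolute log2FC was 0.52 over the members and 0.63 over all tested miRNAs.

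hsa-miR-483-5p, which has been studied in serum as a marker of adrenocortical carcinoma, had 38.4, 67.8 and 50 CPM in co-treatment controls 1 to 3 and 119, 117 and 79.2 CPM in the H2O2 libraries. Every H2O2 library was above every control. The group means were 52.1 ± 14.8 and 105 ± 22.3 CPM (SD, n = 3 each), a log2FC of 0.98 (SE 0.30) or 1.97-fold, with an edgeR exact test FDR of 0.0118. hsa-miR-483-3p, reported to repress the pro-apoptotic gene BBC3, had 67.4, 70.7 and 59.6 CPM in the controls and 168, 153 and 89.2 CPM with H2O2. The groups again did not overlap, with H2O2 library 3 the lowest of the treated libraries for both strands. The log2FC was 1.03 (SE 0.30) or 2.04-fold, between means of 65.9 ± 5.72 and 137 ± 41.8 CPM, with an edgeR exact test FDR of 0.00721. Of all tested miRNAs, 20.8% lay above every control in this way.

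Both calls depended on single libraries. Without control 1 the edgeR FDR of hsa-miR-483-5p was 0.0703 (log2FC 0.90), and without H2O2 library 1 it was 0.0727 for both hsa-miR-483-5p (log2FC 0.90) and hsa-miR-483-3p (log2FC 0.87). After each library's trend on the GC content of the hairpin arm was removed, the log2FC of hsa-miR-483-3p was 0.67 with an edgeR quasi-likelihood FDR of 0.0731. The trend on mature GC content could not be removed for the miR-483 strands, as their mature sequences were not found.

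hsa-miR-675-3p, the abundant strand from H19, had 225, 170.4 and 224 CPM in the co-treatment controls and 175, 135 and 103 CPM in the H2O2 libraries. Only H2O2 library 1 reached the range of the controls. The log2FC of -0.60 (SE 0.28), from 206 ± 31.2 to 137 ± 36 CPM, had an edgeR exact test FDR of 0.107 and was not called. It passed after the GC trend was removed, at a log2FC of -1.11 and an edgeR quasi-likelihood FDR of 0.0165 with the GC content of the hairpin, and -1 and 0.0459 with that of the mature strand, but not with the mature correction and a replicate block together (-1.02, edgeR quasi-likelihood FDR 0.155). hsa-miR-675-5p, the less abundant strand from H19, had 24.2, 21.9 and 26.8 CPM in the controls and 24.3, 30.4 and 13.7 CPM with H2O2. The treated libraries spread on both sides of the controls. Its log2FC was -0.11 (SE 0.31; edgeR exact test FDR 0.834), and it was 0.05 when every library had to pass the CPM minimum and -0.80 after removal of the trend on mature GC content, both without a call.

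hsa-miR-335-5p, known as a suppressor of breast cancer metastasis, had 100, 104 and 105 CPM in the co-treatment controls and 79.4, 53.5 and 102 CPM with H2O2. The controls were tightly grouped, and H2O2 library 3 fell within their range. The log2FC was -0.43 (SE 0.28; edgeR exact test FDR 0.274), and it was 0.53 after removal of the trend on mature GC content (edgeR quasi-likelihood FDR 0.163). hsa-miR-335-3p, the minor strand, had 12, 7.56 and 6.64 CPM in the controls and 12.1, 8.03 and 12.8 CPM with H2O2. The groups overlapped, with a log2FC of 0.31 (SE 0.33; edgeR exact test FDR 0.57). That these 4 miRNAs missed the threshold does not show that their levels stayed the same.

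The summed levels of 3 marker lists of other cell types were lower in the H2O2 libraries of this experiment, without overlap. The summed level of the 5 white blood cell markers was 18 to 22.2 CPM in the controls and 9.7 to 17.3 CPM with H2O2. That of the 6 epithelial markers used was 49.6 to 54.1 and 42.2 to 45.3 CPM. The 5 mesenchymal markers, led by hsa-miR-143-3p, summed to 15477 to 16805 CPM in the controls and 10169.8 to 13236 CPM with H2O2. In the edgeR exact test, 1 of 4 tested white blood cell markers, 0 of 6 epithelial and 1 of 5 mesenchymal were called lower. No marker of these 3 lists was called higher, and 15.6% of all tested miRNAs were called lower. hsa-miR-223-3p of the white blood cell list had 7, 4 and 3 counts in the controls and 15, 4 and 35 with H2O2. hsa-miR-155-5p of the same list had 0, 1 and 0 counts against 7, 2 and 4. Reads of the mesenchymal hsa-miR-214-3p overlapped, at 16253, 12272 and 6907 against 12441, 16687 and 10529. The summed neuronal, red blood cell, liver and muscle levels overlapped between the groups. Of their tested markers, 2 of 5 neuronal were called lower and 1 of 3 red blood cell higher, and no liver or muscle marker was called. Of all tested miRNAs, 10.6% were called higher. The part of these lists in the miR-483 result was not tested.

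**Figure D2:**
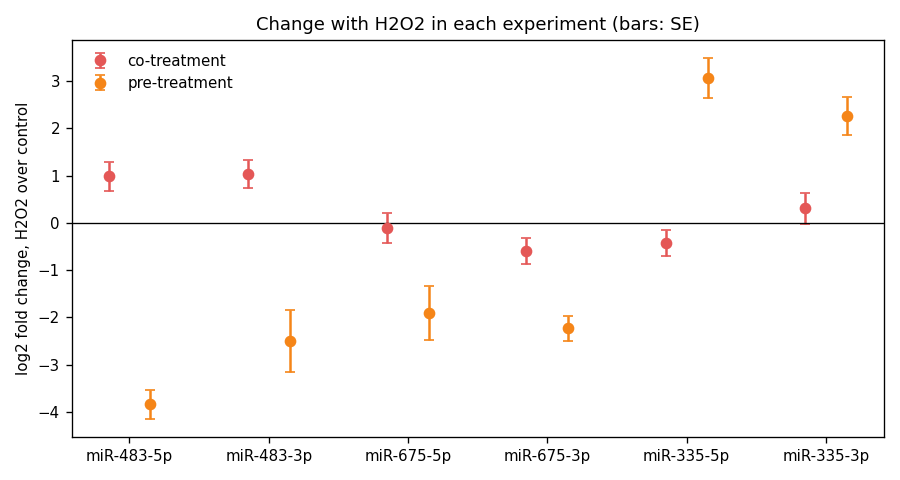
Log2FC of H2O2 over control for each member (vertical axis) in the co-treatment (red) and pre-treatment (orange) experiments, with bars for the SE of the edgeR quasi-likelihood fit (n = 3 against 3, and 3 against 2). miR-483 lies above 0 in co-treatment, at 0.98 and 1.03, and below 0 in pre-treatment, at -3.84 and -2.50, while the pre-treatment values chose the members in part.

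In the cells that met H2O2 before ATRA, the miR-483 and miR-675 strands were lower than in the controls and the miR-335 strands were higher. Members were chosen partly for this contrast, so its values are a description and no test is given. Against both controls, 4 members were below and 2 above every control library, beside 22.4% and 25.2% of the 868 tested miRNAs.

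The largest difference was that of hsa-miR-483-5p, with 203 and 137 CPM in pre-treatment controls 1 and 2 and 11.7, 12.9 and 11.7 CPM in the H2O2 libraries. The 3 treated libraries differed by little and lay far below both controls. The log2FC was -3.84 (SE 0.31), or 14.4-fold lower, at -4.08 with only control 1 and -3.56 with only control 2. In counts, 1437 and 924 reads stood against 97, 92 and 83.

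For hsa-miR-483-3p the size of the difference rested on control 1. It had 172 and 26.2 CPM in the controls and 18.4, 17.2 and 16.9 CPM in the H2O2 libraries. Control 2 was thus only a little above the treated libraries. Its log2FC of -2.50 (SE 0.66) came to -3.30 with control 1 as the sole control and to -0.64 with control 2.

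Of the H19 strands, hsa-miR-675-3p had nearly equal controls, at 199 and 199.5 CPM, and 41, 48.6 and 41.3 CPM in the H2O2 libraries. Its log2FC was -2.23 (SE 0.27), or 4.69-fold lower, and it was -2.20 and -2.25 against controls 1 and 2 alone. hsa-miR-675-5p had 6.78 and 23.8 CPM in the controls and 4.21, 5.04 and 3.51 CPM with H2O2, on 25 to 161 reads. Here control 1, not control 2, was close to the treated libraries. With control 1 as the sole control the log2FC of -1.91 (SE 0.57) came to -0.68, and with control 2 to -2.54.

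The MEST miRNAs went the other way. hsa-miR-335-5p had 33.9 and 15.6 CPM in the controls and 202, 240.4 and 188 CPM in the H2O2 libraries. All treated libraries were also above the 6 co-treatment libraries. The log2FC was 3.06 (SE 0.42), or 8.37-fold higher, at 2.62 and 3.70 against controls 1 and 2 alone. hsa-miR-335-3p had 2.4 and 2.67 CPM in the controls, from 17 and 18 reads, and 12.6, 15.4 and 9.56 CPM in the H2O2 libraries. Its log2FC of 2.26 (SE 0.41) was 2.37 and 2.17 against controls 1 and 2 alone. The pre-treatment H2O2 levels of this strand overlapped those of the co-treatment libraries, and it was the pre-treatment controls that were lowest.

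**Figure D3:**
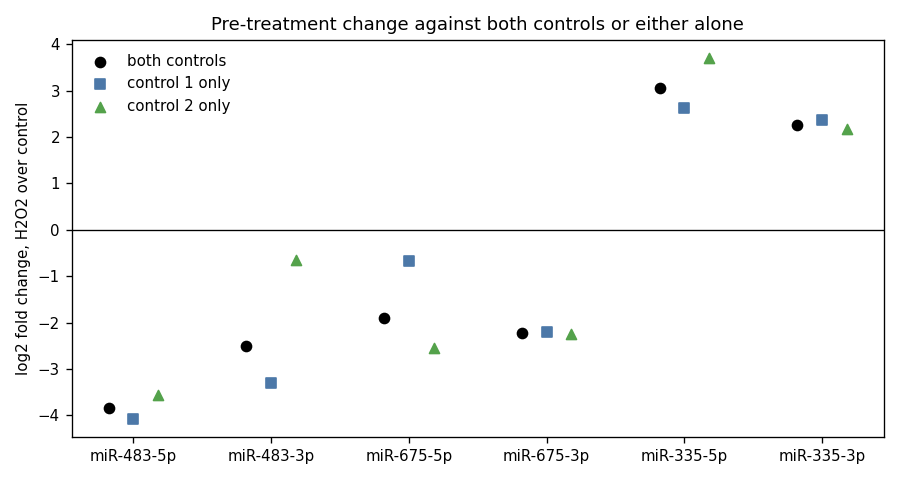
Pre-treatment log2FC of each member (vertical axis) against both controls (black circles), control 1 alone (blue squares) and control 2 alone (green triangles). Each member keeps its sign, with hsa-miR-483-3p moving from -3.30 to -0.64 and hsa-miR-675-5p from -0.68 to -2.54 while hsa-miR-675-3p stays at -2.20 to -2.25.

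The summed levels of some marker lists moved with the same contrast. The 6 neuronal and neuroblast miRNAs summed to 1428 and 1912 CPM in the pre-treatment controls and to 2355 to 2726 CPM in the H2O2 libraries. This gap was mainly that of hsa-miR-128-3p, at 8016 and 8556 reads against 13642 to 14814. hsa-miR-9-3p was also higher, at 69 to 75 reads against 9 and 31. Reads of hsa-miR-218-5p (300 and 576 against 247 to 467) and hsa-miR-9-5p (25 and 35 against 30 to 41) overlapped. Of the 5 neuronal markers tested here by the edgeR exact test, 0 were called higher and 0 lower. The 3 liver miRNAs hsa-miR-122-5p, hsa-miR-192-5p and hsa-miR-194-5p summed to 487 and 698 CPM in the pre-treatment controls and to 1539.7 to 1824 CPM in the H2O2 libraries. The 4 red blood cell miRNAs summed to 2.12 and 3.7 CPM in the controls and to 10.5 to 15 CPM with H2O2. In the edgeR exact test, 2 of 3 tested liver and 2 of 3 tested red blood cell markers were called higher and 0 lower. Of all tested miRNAs, 5.41% were called higher and 9.91% lower. The white blood cell list stood at 119 and 13.9 CPM in controls 1 and 2, against 17.8 to 22.1 CPM with H2O2, and the epithelial list at 185 and 43.7 CPM against 46.5 to 51.6 CPM. The mesenchymal list stood at 10309 and 19317 CPM in these controls, against 13958 to 16005 CPM. By the same test, 1 of 4 white blood cell, 1 of 6 epithelial and 1 of 5 mesenchymal markers were called lower and 0 higher. Of the 2 muscle markers used, hsa-miR-133a-3p was at 0 in all libraries and hsa-miR-206 had 4 to 31 counts. The part of these cell types in the member values was not tested. Control 1 alone held high counts of hsa-miR-223-3p and hsa-miR-205-5p. The other white blood cell markers also had more counts in control 1 than in control 2. These were hsa-miR-142-3p (182 and 62), hsa-miR-142-5p (85 and 15), hsa-miR-150-5p (33 and 13) and hsa-miR-155-5p (3 and 0). The other epithelial markers were mixed in controls 1 and 2, such as hsa-miR-200a-3p (22 and 40 counts) and hsa-miR-200c-3p (178 and 131). Leaving out control 1 left hsa-miR-483-5p at -3.56, hsa-miR-483-3p at -0.64, hsa-miR-675-5p at -2.54, hsa-miR-675-3p at -2.25, hsa-miR-335-5p at 3.70 and hsa-miR-335-3p at 2.17.

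Across the 4 groups, hsa-miR-483-5p ran from the pre-treatment H2O2 libraries through co-treatment controls and co-treatment H2O2 to the pre-treatment controls, and no neighbours in that order overlapped. hsa-miR-335-5p ran the opposite way at both ends, from the pre-treatment controls, at 15.6 and 33.9 CPM, to the pre-treatment H2O2 libraries. Its co-treatment groups, between these, overlapped. For hsa-miR-675-3p the pre-treatment H2O2 libraries were lowest, the co-treatment H2O2 libraries overlapped the co-treatment controls, and both pre-treatment controls lay within the range of the co-treatment controls. The control groups themselves stood apart for miR-335 and for hsa-miR-483-5p. hsa-miR-335-5p had 103 ± 2.62 CPM (SD, n = 3) in the co-treatment and 24.7 ± 13 CPM (n = 2) in the pre-treatment controls. For hsa-miR-483-5p the same groups had 52.1 ± 14.8 and 170 ± 46.8 CPM. Experiment and control group cannot be told apart in these differences.

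The balance of the arms does not depend on how libraries are scaled. In miR-483 the log2 ratio of 5p to 3p reads (0.5 added to each) was -0.81, -0.06 and -0.25 in the co-treatment controls and -0.50, -0.39 and -0.17 with H2O2. Both arms thus rose together, with a difference of 0.02 (exact two-sided permutation p = 1, n = 3 against 3). The smallest p this design allows is 0.1, so that no ratio could pass 0.05. In miR-675 the ratio was -3.21, -2.95 and -3.06 in the controls and -2.84, -2.14 and -2.90 with H2O2. All treated libraries lay nearer to equal arms, by 0.45 (exact permutation p = 0.1, adjusted over 3 hairpins 0.15). In miR-335 it was 3.05, 3.77 and 3.97 in the controls and 2.70, 2.72 and 2.98 with H2O2, lower by -0.79 (exact permutation p = 0.1, adjusted 0.15). Of the 203 hairpins with both arms tested, 30.5% likewise had ratios that did not overlap between the groups, and the median absolute difference over them was 0.59.

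In the pre-treatment H2O2 libraries the miR-483 ratio was -0.65, -0.42 and -0.53, close to that of both co-treatment groups. The controls had 0.24 and 2.38, or 1.18 and 5.21 5p reads for each 3p read. Control 2 was thus the only library of the 11 with a large excess of the 5p strand. The gap of 2.14 between these controls was the 40th largest of 198 hairpins, among which their median gap was 0.97, against 0.23 to 0.71 for the other pairs of libraries within a group. For miR-675 the controls had -4.86 and -3.06, a gap of 1.8, and the H2O2 libraries -3.27, -3.25 and -3.53. For miR-335 they had 3.78 and 2.51, and the H2O2 libraries 3.99, 3.96 and 4.29. Between the controls, which arm was in excess kept for every hairpin, but the size of the excess did not.

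**Figure D4:**
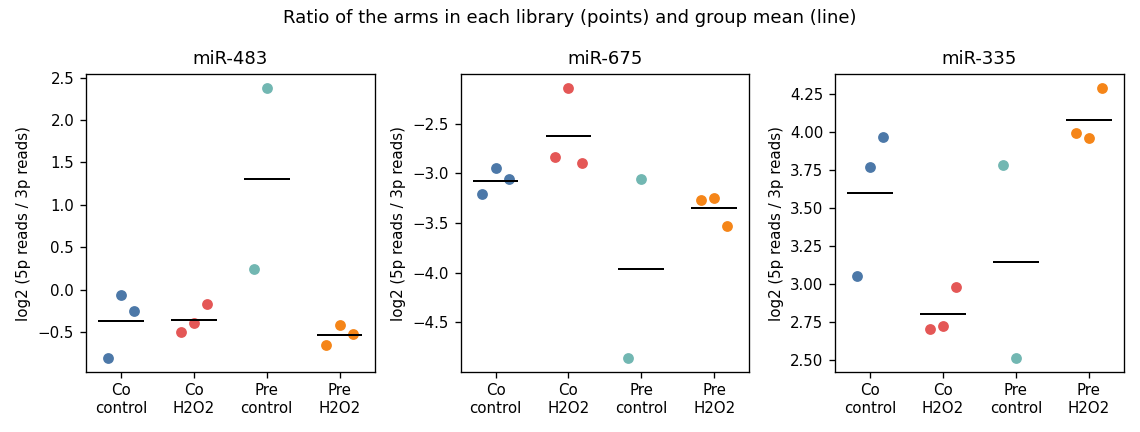
Log2 ratio of 5p to 3p reads (vertical axis, a log scale whose range differs between panels) for the 3 hairpins in the 11 libraries, with each point a library and the line the group mean. The pre-treatment controls are 0.24 and 2.38 for miR-483, -4.86 and -3.06 for miR-675, and 3.78 and 2.51 for miR-335, wider apart than the libraries of any other group.

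The levels of the members were set against those of each other and of 399 further miRNAs, over 11 libraries that share treatment groups and scaling, as a description. On log2(CPM + 1), hsa-miR-483-5p and hsa-miR-335-5p ran in opposite directions, with r = -0.86. Within a hairpin r was 0.81 for miR-483, 0.83 for miR-675 and 0.84 for miR-335. In the 6 co-treatment libraries alone it was 0.91, 0.60 and 0.08, so that the miR-335 arms ran together over the 11 libraries and not within co-treatment. The miRNAs most like hsa-miR-483-5p were hsa-miR-323b-3p (r = 0.94), hsa-miR-129-2-3p (0.93) and hsa-miR-323a-3p (0.92), and those most like hsa-miR-483-3p were hsa-miR-323a-3p (0.82), hsa-miR-935 (0.81) and hsa-miR-505-5p (0.80). For hsa-miR-675-5p they were hsa-miR-654-3p (0.94), hsa-miR-145-5p (0.90) and hsa-miR-369-5p (0.88), and for hsa-miR-675-3p hsa-miR-877-5p (0.92), hsa-miR-145-5p (0.90) and hsa-miR-129-1-3p (0.87). For hsa-miR-335-5p they were hsa-miR-195-5p (0.95), hsa-miR-421 (0.92) and hsa-miR-26b-5p (0.88), and for hsa-miR-335-3p hsa-miR-3065-5p (0.82), hsa-miR-488-5p (0.80) and hsa-miR-195-5p (0.77).

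The neighbours of the hairpins were counted in the same way. The 5 further miRNAs encoded within 1 Mb of the miR-483 or miR-675 hairpin had at most 5 counts in any library and were not tested. Of 10 miRNAs within 1 Mb of the miR-335 hairpin, 7 were tested in each experiment. In co-treatment, 0 were called higher and 1 lower, hsa-miR-29b-3p (log2FC -1.78, edgeR exact test FDR 0.00157), which a further hairpin elsewhere also encodes. In pre-treatment, 1 was called higher, hsa-miR-96-5p of the sensory miR-183 cluster (log2FC 1.31, SE 0.35, edgeR exact test FDR 0.0347, quasi-likelihood FDR 0.066), and 0 lower, beside 5.41% and 9.91% of all tested miRNAs. In either direction 15.3% of all tested miRNAs were called in pre-treatment and 26.2% in co-treatment, so that 1 call among 7 does not set the neighbours apart. Their median log2FC there was 0.35, beside 3.06 and 2.26 for the miR-335 strands and -0.19 for all tested miRNAs.

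A selection of miRNAs from other imprinted loci was also followed, which leaves out many of the miRNAs at the RTL1 to MEG9 locus. Of 85 listed miRNAs from GNAS, the RTL1 antisense, MEG3, MEG8 and MEG9 transcripts and the placental cluster of chromosome 19, 13 were tested in co-treatment, and none came from the chromosome 19 cluster. There 2 were called higher, hsa-miR-296-3p of GNAS (log2FC 0.85, edgeR exact test FDR 0.0122) and hsa-miR-432-5p of the RTL1 antisense transcript (log2FC 1.30, FDR 0.00978). A single miRNA was lower, hsa-miR-495-3p (log2FC -1.68, edgeR exact test FDR 0.0326), on 3 to 15 counts. Over all tested miRNAs, 10.6% were called higher and 15.6% lower in co-treatment. The median log2FC of the 13 was 0.04, against -0.04 for all tested miRNAs. In pre-treatment 13 were tested, 0 called higher and 3 lower by the edgeR exact test, beside 5.41% and 9.91% of all tested miRNAs. None of these 3 passed the quasi-likelihood test (FDR 0.052 to 0.0758). Over all tested miRNAs the number called in pre-treatment depended on the test and the controls, with 133 by the exact test, 17 by the quasi-likelihood test, and 285 and 449 by the exact test without control 1 and without control 2. The pre-treatment median log2FC of the 13 imprinted miRNAs, -0.28, was near the -0.19 of all tested miRNAs.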

How the data were processed

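Total RNA of 11 libraries was sequenced after QIAseq miRNA library preparation on an Illumina NextSeq instrument. Per the labels and the methods of the study, the authors checked reads with FastQC (v0.11.8), trimmed adapters and low-quality bases with Cutadapt (v2.10), aligned to hg19 with Bowtie2 (v2.4.1) and deposited raw miRNA read counts from htseq-count (v0.7.2), in a table for each experiment. Whether unique molecular identifiers were collapsed is not given in the sources used here, so that duplicate reads could narrow the counting error. The deposited tables of the authors' own comparisons, which hold log2FC, log2 CPM, p-values and FDR, were not used. The members and the lists of markers, imprinted loci and neighbours were chosen with earlier results of these data known.

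Counts were analysed with edgeR (v4.0.16; R v4.3.3) in each experiment apart, with TMM factors and the exact test. A miRNA was tested when at least 3 (co-treatment) or 2 (pre-treatment) libraries exceeded the CPM to which 5 counts of the smallest library correspond, and called at a Benjamini-Hochberg FDR below 0.05 with an absolute log2FC above 0.6. The exact test, the CPM threshold and the limits are those of the study's methods, while the number of libraries that must pass was chosen here. The SE came from the quasi-likelihood fit. Printed CPM use TMM factors over all 11 libraries, so the ratio of 2 group means can depart slightly from the fitted fold. The named miRNAs were all members, the 3 miRNAs most correlated with each (tested in both experiments, mean CPM of at least 10), tested neighbours, imprinted miRNAs called in co-treatment, and markers. hsa-miR-203a-3p and hsa-miR-1-3p of the marker lists were not used here. Ratios of arms were compared by the exact permutation test. No libraries were duplicates, since the chi-square per degree of freedom between libraries of a group was at least 36.1. The alternatives were DESeq2 (v1.42.0), other scalings and filters, removal of a GC trend, a replicate block, a joint fit and leaving out each library. The GC content of the hairpin arm and the comparison of ratio gaps over all hairpins were added after seeing the data. The scripts were tested on simulated data.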

Additional observations from a re-analysis of the deposited data

Results flagged for a closer look

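hsa-miR-483-5p and hsa-miR-483-3p are given here because their values with H2O2 went in opposite directions in the 2 experiments. This is not particular to them, since hsa-miR-505-5p (0.83 and -0.61) and hsa-miR-26b-5p (-0.71 and 1.08), for example, also had log2FC of opposite sign. hsa-miR-483-5p had a log2FC of 0.98 in co-treatment and -3.84 in pre-treatment, and every treated library was above the controls in the former and below them in the latter. hsa-miR-483-3p had 1.03 and -2.50 with the same separation, although its pre-treatment value was -0.64 against control 2 alone. The difference between the experiments was not tested, since the members were chosen partly for the pre-treatment values. The controls also differed between the experiments for hsa-miR-483-5p, with means of 52.1 CPM in co-treatment and 170 CPM in pre-treatment. Of 2576 miRNAs the choice was made by name, so no count of such opposite changes among the members is read as a result.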

How the results depend on the processing

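In co-treatment, hsa-miR-483-5p kept its sign in every alternative run for it, and among these lost its call only without control 1 or H2O2 library 1. With a library left out its log2FC was 0.90 to 1.27 (edgeR FDR 0.00064 to 0.0727). Removal of the trend on mature GC content was not run for either miR-483 strand, as their mature sequences were not found. That alternative left 24 of 359 miRNAs called, against 125 before it, so whether the miR-483 calls would pass it is not known. hsa-miR-483-3p also kept its sign, at 0.67 with the GC trend of the hairpin arm removed (edgeR FDR 0.0731), 0.62 with the replicate block added (0.111), 1.05 in a joint fit of all 11 libraries (0.154), and 0.87 to 1.29 with a library left out. hsa-miR-675-3p passed with the GC trend removed, at -1 (mature strand), -1.11 (hairpin arm) and -1.12 (hairpin arm with the replicate block; edgeR FDR 0.0128), but not at -1.02 (mature strand with the replicate block; edgeR FDR 0.155), and was -0.79 to -0.39 with a library left out. The sign of hsa-miR-675-5p, never called, turned to 0.05 with the CPM minimum in all libraries, to 0.12 and 0.18 in the uncorrected fits of miRNAs with a mature or hairpin GC value, moved to -0.80 and, with the block, -0.84 (mature GC) and to -0.66 and -0.71 (hairpin GC), and ranged from -0.29 to 0.18 with a library left out. That of hsa-miR-335-5p turned to 0.53 and, with the block, 0.52 (mature GC), and 0.29 and 0.24 (hairpin GC), and was -0.62 to -0.12 with a library left out. hsa-miR-335-3p ranged from 0.20 to 0.70. GC values covered 88.6% (mature) and 90.4% (hairpin) of the miRNAs with a mean of at least 10 CPM. The cause of these shifts was not tested.

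The number of miRNAs called in co-treatment, 207 (84 higher and 123 lower), was 111 with the replicate block, 84 in the joint fit, 125 and 131 among miRNAs with a mature or hairpin GC value, 24 and 79 after removing that trend, and 0 and 66 with the block as well, and it ranged from 98 (without H2O2 library 3) to 279 (without control 2), with 125, 113 and 128 without control 1, control 3 and H2O2 library 1. In the edgeR quasi-likelihood fit with 0 calls, 78 of 359 miRNAs had an unadjusted p under 0.05. The split of calls moved to 99 higher and 97 lower with library size alone and to 115 and 87 with the CPM minimum in all libraries. Same-numbered libraries deviated together little (r of 0.07, -0.17 and -0.19 in co-treatment, 0.26 and -0.03 in pre-treatment). In co-treatment 1 of 3 H2O2 libraries correlated best with its own number. The labels do not say what same-numbered libraries share, so whether a replicate block is warranted is not known.

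The pre-treatment differences, untested, kept their sign in every alternative. hsa-miR-483-5p was -4.14 among miRNAs with a hairpin GC value and -4.08 to -3.56 with a library left out. hsa-miR-675-3p was -2.08 without a filter, -2.41 with the CPM minimum in all libraries, -2.48 and -2.49 among miRNAs with a mature or hairpin GC value, -1.95 and -1.90 with that trend removed and -1.92 and -1.86 with the block as well, and -2.26 to -2.15 with a library left out. hsa-miR-335-5p was 2.23 and, with the block, 2.58 (mature GC) and 2.37 (hairpin GC), and 2.62 to 3.70 with a library left out. With a library left out, hsa-miR-483-3p ranged from -3.30 to -0.64, hsa-miR-675-5p from -2.54 to -0.68 and hsa-miR-335-3p from 2.14 to 2.44. The co-treatment ratio difference ranged from -0.20 to 0.18 for miR-483 (-0.07 without H2O2 library 3), 0.20 to 0.58 for miR-675 and -1.07 to -0.61 for miR-335. The pre-treatment controls number 2 and differ, which limits these values, and hsa-miR-335-3p and hsa-miR-675-5p rest on as few as 17 and 25 reads in a library.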
